A study of Homo sapiens with 36 samples.

Results

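The baseline transcriptome of COLO 205 was compared with that of 5 other human colon cancer lines, HCT 116, SW 480, HT-29, HCT-15 and COLO 320. The 18 DMSO libraries of the series, 3 for each line, entered the comparison out of 36 libraries in all, and 15134 of 26362 genes had an RPKM (reads per kilobase of transcript, scaled to the mapped reads of the library) of at least 1 in at least 3 of them. Each difference is the mean log2(RPKM + 0.5) of the 3 COLO 205 libraries minus the mean of the 5 other lines' group means, so every line counted equally, and it is given with its standard error (SE). The scale understates differences of genes with low values. The DMSO libraries were made after 24 h with DMSO. The other 18 libraries are the same 6 lines after 24 h with 0.5 µM JQ1. JQ1 inhibits the BET bromodomain proteins that read acetylated chromatin. Those 18 libraries were used only to see which differences recurred under treatment. All groups were harvested in logarithmic growth, and total RNA from a column kit went into TruSeq libraries. Each line is 1 established line and stands for no other tumour, and the labels do not say whether the 3 libraries of a group came from separate cultures, so p-values measure only the spread between libraries, which may be technical.

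The colon is lined by a renewing epithelium. Stem cells at the crypt base depend on Wnt signalling, and their progeny become absorptive enterocytes with a brush border, mucus-secreting goblet cells or hormone-secreting cells under transcription factors of the CDX, HNF, GATA and KLF families. Colon cancer lines keep these programmes to unequal degrees. COLO 205 was grown from ascites of a colon carcinoma, attaches loosely in culture and, like HT-29, carries mutant BRAF. HCT 116 and HCT-15 have defective DNA mismatch repair, and COLO 320 is a poorly epithelial line with an amplified MYC gene.

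The DMSO libraries held 20.2 M to 26.3 M reads in genes (M, 1e6 reads), and those of COLO 205 held 20.2 M to 24.9 M. Libraries of a group correlated at r from 0.99766 to 0.99835 across genes, in 18 pairs, and every pair differed by more than sampling noise (chi-square per gene 1.23 to 3.20), so each library counted once. Of the defining markers of colon epithelium, COLO 205 held EPCAM at a mean of 808 RPKM, CDH1 at 144, KRT8 at 590, KRT18 at 866, KRT19 at 435, VIL1 at 138 and CDH17 at 19.8. CEACAM5 was at 1.13 RPKM, and the colonic markers KRT20 and CDX2 were nearly absent, at 0.285 and 0.33 RPKM. Of the markers of cells that should not be in the culture, 5 of 9 fibroblast markers and 3 of 6 endothelial markers were at 0 in all 3 COLO 205 libraries, and their sums were 0.493 to 0.619 and 0.107 to 0.155 RPKM.

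COLO 205 stood apart from the other lines in both directions. By limma's moderated test with Benjamini-Hochberg adjustment over all genes tested, 13490 genes (89.1% of those tested) passed an adjusted p of 0.05 at any size. In bulk libraries, fewer cells with a transcript and less of it in each cell cannot be told apart. At 2-fold or more, 2055 genes (13.6%) were higher in COLO 205 and 1839 (12.2%) were lower. PIGP was just inside that threshold, with a log2 difference of 1.0004, and ACTR5 just outside, at 0.99984. A stricter description asks whether all 3 COLO 205 libraries lay outside the range of the 15 others: 1454 of the 2-fold higher genes (9.61% of the genes tested) lay above it and 841 of the lower ones (5.56%) below it. At any size, 2506 genes (16.6%) lay above.

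These tests compare libraries of 6 particular lines. Taken over line means, COLO 205 is 1 value against 5, and 62 genes (0.41%) were higher and 15 (0.0991%) lower at 2-fold and an adjusted p of 0.05 in limma with 4 residual degrees of freedom. Of these 77 genes 75 have a symbol, and 10 of the 15 highest and 7 of the 15 lowest genes below are among them. The other calls passed against the spread between libraries of a line and did not pass against the spread between lines. Of the gene lists described below, 2 members each of the enterocyte, interferon and xenobiotic lists passed over line means. The Wnt list had 1, and every other list 0. Among these, MYO1A, XAF1, SAMD9L and SMOC2 met the RPKM minimum through COLO 205 alone, as did several of the 15 highest genes. They were tested for that reason. The 62 higher genes were not counted without such genes.

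**Figure D1:**
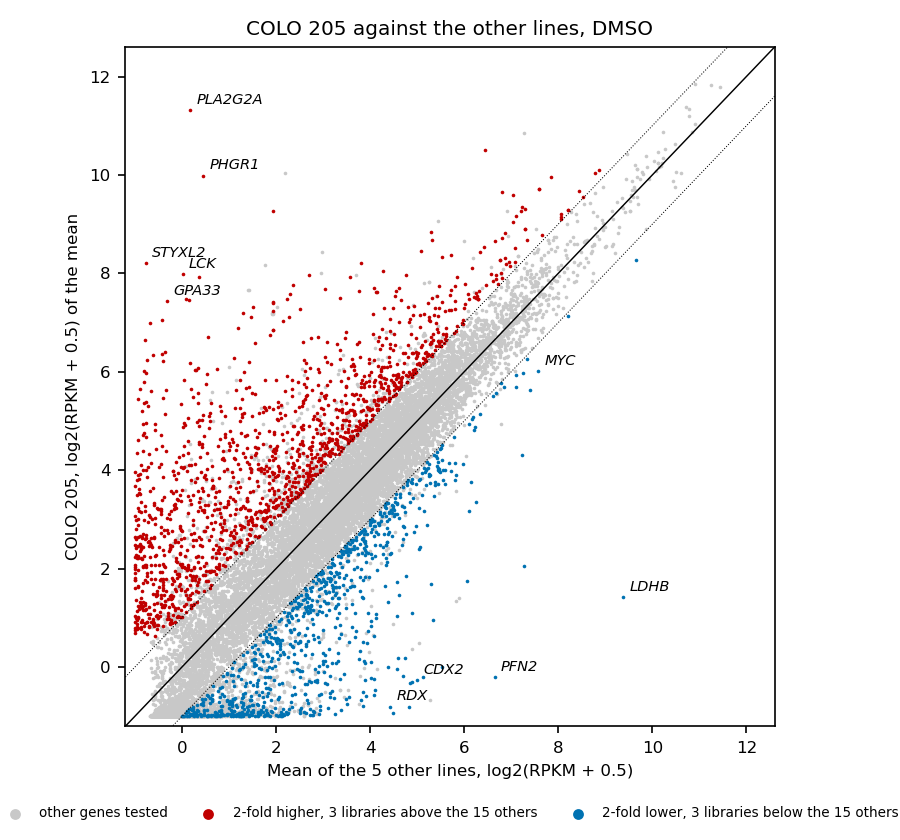
Mean log2(RPKM + 0.5) of each tested gene in the 5 other lines, each weighted equally (x axis), against COLO 205 (y axis), DMSO libraries. Red points are genes at least 2-fold higher with all 3 COLO 205 libraries above the 15 others (1454 genes), blue points the same below (841 genes), and the dotted lines mark 2-fold; PLA2G2A is farthest above the diagonal and LDHB farthest below.

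HT-29 was the line nearest to COLO 205. Against HT-29 alone, 1822 genes (12%) were at least 2-fold higher in COLO 205 and 1603 (10.6%) lower. The counts were larger against HCT-15, with 2434 (16.1%) higher and 1888 (12.5%) lower, and against HCT 116, with 2554 (16.9%) and 2395 (15.8%). Against SW 480 they were 2248 (14.9%) and 2665 (17.6%). COLO 320 was the most distant, with 2957 (19.5%) higher and 2740 (18.1%) lower.

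HT-29 was also the line that most often shared a level with COLO 205. Of the 2055 higher genes, 243 (11.8%) overlapped with the range of HT-29 and with no other line, against 99 (4.82%) for SW 480, the next. Of the 1839 lower genes, 303 (16.5%) overlapped with HT-29 alone and 148 (8.05%) with COLO 320 alone. Genes that overlapped with no line made up 70.8% of the higher and 45.7% of the lower set. These shares are not built alike. Of the genes tested, 312 met the RPKM minimum through COLO 205 alone. Such genes add to the higher share only, and without them 1783 genes were higher and 1839 lower. What sets the shares apart was not tested.

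PLA2G2A (Entrez 5320), which encodes a secreted phospholipase A2 of Paneth cells and mucosal fluids, gave the largest difference of the genes named by rule. Its 3 COLO 205 libraries read 2535, 2531 and 2550 RPKM, and the 15 others ran from 0 to 1.74 with a median of 0.661. The groups did not overlap, and the log2 difference was 11.14 (SE 0.10, adjusted p = 1.42e-21, and 0.0124 over line means). PHGR1, a small histidine-rich protein of the gut epithelium, read 1009, 978 and 1052 RPKM, with 42.4 in HT-29 and 0.211 or less in the other line means (9.54, SE 0.09). STYXL2, a catalytically inactive phosphatase, read 297, 296 and 293.5 RPKM against at most 0.174 (8.98, SE 0.04). All 3 COLO 205 libraries of these genes lay above every other library, and PHGR1 was the one of the 3 that did not pass over line means (adjusted p = 0.286). STYXL2 reached 1 RPKM in COLO 205 alone and was tested for that reason, so its lack of overlap was fixed.

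GPA33 (Entrez 10223) encodes the A33 antigen, a cell surface glycoprotein of intestinal epithelium. It read 170.0, 171 and 175 RPKM in COLO 205, and the 15 others ran from 0.0253 to 2.33 with a median of 0.109 (7.75, SE 0.08, adjusted p = 1.25e-20). At the other end was LDHB (Entrez 3945), the B subunit of lactate dehydrogenase, which is abundant in most cells. Its COLO 205 libraries read 3.09, 1.86 and 1.56 RPKM, and the 15 others ran from 368 to 1028 with a median of 697 (-8.01, SE 0.10, adjusted p = 8.68e-20). Neither gene overlapped between the groups, and both passed over line means (adjusted p = 0.0334 and 0.0124). The promoters of both are shown because they lie at opposite ends of the comparison and differ in the CG dinucleotides that DNA methylation acts on. Each is the RefSeq GRCh38.p14 sequence from 250 bases before to 50 after the start of the gene, on its own strand, with each CG in capitals. The GPA33 window (chr1:167090328-167090627, minus strand) holds 0 CG and so no capitals, and the LDHB window (chr12:21657793-21658092, minus strand) holds 14.
GPA33: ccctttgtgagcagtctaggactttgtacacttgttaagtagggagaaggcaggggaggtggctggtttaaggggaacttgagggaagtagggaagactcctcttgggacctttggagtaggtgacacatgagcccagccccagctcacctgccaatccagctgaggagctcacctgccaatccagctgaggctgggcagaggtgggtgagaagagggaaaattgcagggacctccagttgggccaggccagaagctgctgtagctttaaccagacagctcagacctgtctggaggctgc
LDHB: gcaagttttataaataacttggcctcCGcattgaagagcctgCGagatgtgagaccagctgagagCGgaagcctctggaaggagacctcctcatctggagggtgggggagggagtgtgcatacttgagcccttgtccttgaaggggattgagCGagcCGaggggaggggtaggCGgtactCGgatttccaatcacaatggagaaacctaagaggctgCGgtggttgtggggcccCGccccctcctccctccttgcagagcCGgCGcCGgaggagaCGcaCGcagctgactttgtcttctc
Methylation was not measured in these libraries. The 1075 matched promoters of the higher genes whose libraries lay above all others held a median of 22 CG, the 643 of the lower genes 30, and the 11200 of all tested genes with a match 26. The 12 matched promoters of the 15 highest genes held a median of 3. Those of the 15 lowest genes, also 12, held a median of 20, which like the 14 of LDHB is below the 26 of all tested genes.

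Enzymes and signalling proteins filled much of the rest of the 15 highest. LCK, a SRC family kinase best known from T cells, read 250.3, 252 and 255 RPKM, with 4.80 in SW 480 and 0.343 or less in the other line means (7.97, SE 0.05). PIWIL1, a germline protein that binds piRNAs, read 126, 125 and 127 RPKM against at most 0.84 (7.65, SE 0.04). LPXN, a focal adhesion adaptor of the paxillin family, read between 173.5 and 177 against 0.36 to 1.21 (7.32, SE 0.07). BAAT, which conjugates bile acids to amino acids, read between 72.8 and 77.3 against at most 0.324 (6.99, SE 0.05). None of these 4 genes overlapped with another line. For PIWIL1 and BAAT this was fixed, since they reached 1 RPKM in COLO 205 alone and were tested for that reason. GPX2, a glutathione peroxidase of the gut epithelium, read between 610 and 628 RPKM, above HT-29 at a mean of 400 and far above the other line means, at most 1.74 (7.35, SE 0.06). AKR1C3 was likewise highest in COLO 205 (244 RPKM) and next in HT-29 (26.2), and PPP1R1B, a phosphatase inhibitor, stood at 177 and 10.2. AKR1C2, the cytokine-like FAM3B, UNC5CL and PRR9 had differences between 6.79 and 7.44, and their highest value in another library was 0.835 RPKM. They too reached 1 RPKM in COLO 205 alone, so their place above the other libraries was fixed.

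The 15 lowest genes were nearly silent in COLO 205 and expressed in most or all other lines. PFN2, an actin-binding profilin, read 0.369, 0.517 and 0.23 RPKM against 29.1 to 220 (-6.86, SE 0.06). RDX, which encodes radixin and links actin to the membrane, read 0.14, 0.0714 and 0.00726 against 8.73 to 35.2 (-5.24, SE 0.05). GLUL, glutamine synthetase, read between 0.228 and 0.562 against 17.6 to 35.9 (-4.91, SE 0.07). These 3 genes were below every other library and passed over line means, as did NPDC1, HMGN3 and NRGN. CD55, which protects cells from complement, read at most 0.14 against 3.34 to 38.3 (-4.65, SE 0.04). BEX3 and TUBB6 were low in HT-29 too, at means of 0.0922 and 0.595 RPKM, and between 24.8 and 119 in the other lines. FKBP10, CRABP2, PTMS and AKAP12 differed by -5.65 to -4.68, and none of them passed over line means. SLC16A1, a lactate transporter chosen here after its values were seen, read between 2.71 and 2.93 RPKM against 40.3 to 103 (-4.32, SE 0.02), and it passed over line means as well.

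**Figure D2:**
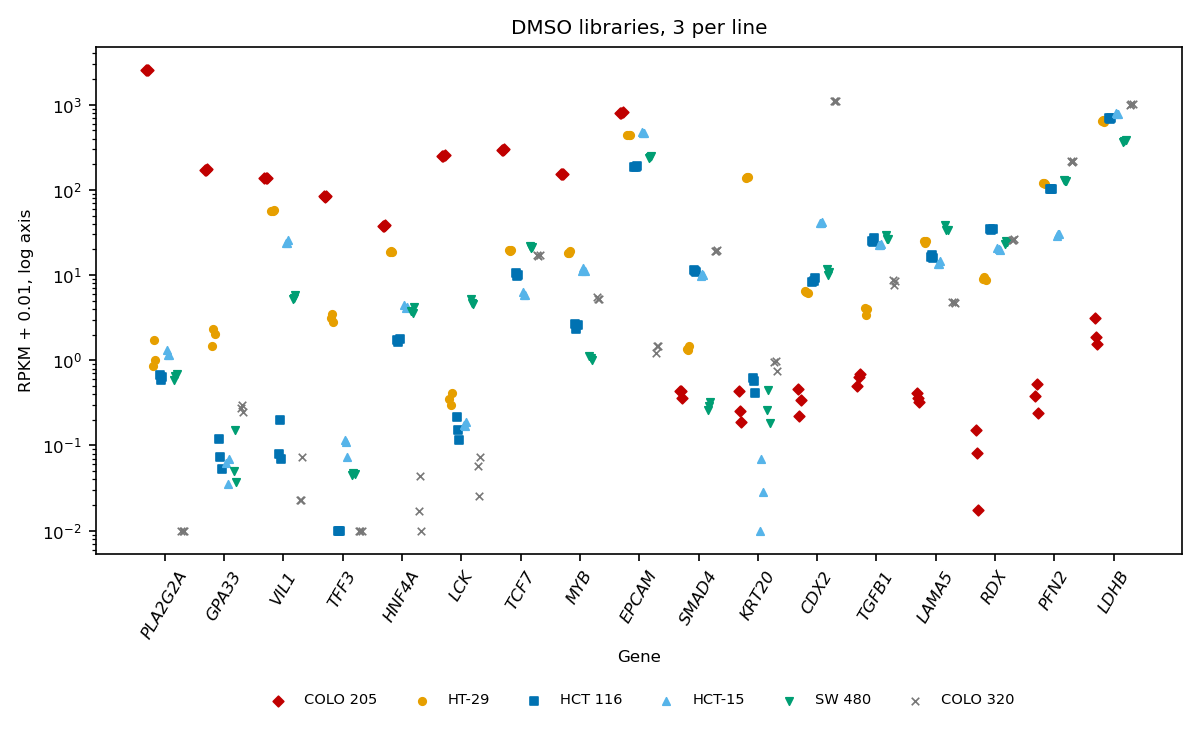
RPKM + 0.01 on a log axis (y) of 17 genes (x) in each of the 18 DMSO libraries, 1 symbol for each line. COLO 205 (red diamonds) lies above all other libraries for PLA2G2A to EPCAM and below them for CDX2 to LDHB, while for SMAD4 it lies near SW 480 and for KRT20 near SW 480, HCT 116 and COLO 320.

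Gene lists are described by the counts of their tested members. A gene that met the filter through COLO 205 alone did not meet it in the 15 other libraries. Such a gene could hardly come out lower, and of 312 such genes 0 were lower. Where a list holds any, its count is also given over the members that met the filter in the 15 other libraries, an alternative chosen after the data were seen. By that filter 1783 of 14822 genes (12%) were higher and 1839 (12.4%) lower. No count of a list is a test of it.

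Of the 23 tested intestinal lineage transcription factors, 14 were at least 2-fold higher in COLO 205 and 1 was lower, against 13.6% and 12.2% of all genes tested; their median difference was 1.59 and that of all genes -0.03. With the filter on the other libraries 13 of 22 were higher, CDX1 being the gene left out. FOXA2, a forkhead factor of gut endoderm, read between 22.9 and 24.4 RPKM against at most 7.35 (4.45, SE 0.06), and ELF3, an epithelial ETS factor, between 101 and 103 against at most 48.9 (3.94, SE 0.04). HNF4A, a nuclear receptor that drives enterocyte genes, read 38.1, 37.5 and 38.4 against at most 19.1 (3.50, SE 0.04). All 3 factors lay above every other library, with HT-29 the next line in each case. CDX1, an intestinal homeobox factor, was also highest in COLO 205, at 2.96 RPKM against 1.11 in HT-29 and 0 in the other 4 lines (2.45, SE 0.06). Its paralog CDX2, a master factor of intestinal identity, was the exception. CDX2 read 0.45, 0.213 and 0.328 RPKM in COLO 205 and ran from 6.18 to 1105 elsewhere, with the top in COLO 320 (-5.27, SE 0.06). KLF5, GATA6, EHF and SPDEF were called higher (1.59 to 2.63) but stood below HT-29, and GATA6 below HCT-15 too.

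Of 43 enterocyte genes 20 were below the filter. Among the 23 tested, 17 were at least 2-fold higher and 2 lower, 14 of the 17 lay above all other libraries, and the median difference was 3.61. CDHR2, GUCA2A, MYO1A and MYO7B met the filter through COLO 205 alone, and without them 13 of 19 were higher. VIL1, which bundles actin in microvilli, read 137, 139 and 138 RPKM, with 57.0 in HT-29 and 24.4 in HCT-15 (4.83, SE 0.05). MUC13, a membrane mucin of the brush border, read 145.6, 146.5 and 145.8 RPKM against at most 47.5 (5.90, SE 0.04). CDH17, the intestinal cadherin, stood at 19.8 RPKM against at most 3.42 (3.80, SE 0.04). The brush border motor MYO1A stood at 8.54 RPKM against at most 0.242 (3.96, SE 0.05), and with GPA33 it was the member that passed over line means. LGALS4, an intestinal galectin, was high in COLO 205 (203 RPKM) but higher in HT-29 (497). The exceptions were CA2, a carbonic anhydrase of surface enterocytes, at 0.0325 RPKM against 13.6 to 19.1 in 3 of the other lines (-3.50, SE 0.05), and MEP1B, which was high in COLO 320 alone (-1.36, SE 0.03). The 20 genes below the filter, among them SI, ALPI, SLC26A3 and APOA4, had COLO 205 means of at most 0.061 RPKM.

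Of 34 mucin, trefoil and goblet cell genes 18 were below the filter. Among the 16 tested, 11 were at least 2-fold higher, 0 were lower, 8 lay above all other libraries, and the median was 3.05. Without SPINK4, TFF1 and TFF2, which met the filter through COLO 205 alone, 8 of 13 were higher. TFF3, a trefoil peptide that protects mucosa, read 85.3, 82.4 and 83.9 RPKM against at most 3.52 (6.76, SE 0.04). ST6GALNAC1, which makes the sialyl-Tn mucin sugar, read between 27.0 and 28.2 against at most 1.69 (5.39, SE 0.03). MUC1, a membrane mucin, stood at 31.9 RPKM and at no more than 1.79 in another library (4.59, SE 0.06). AGR2, a disulfide isomerase of secretory cells, stood at 288 RPKM, below HT-29 at 399 (6.42, SE 0.05). MUC2, the secreted goblet mucin, was below the filter, at 0.00822 RPKM in COLO 205, and ATOH1, the factor that specifies secretory cells, was at 0 in all 3 libraries (-0.90, SE 0.09).

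**Figure D3:**
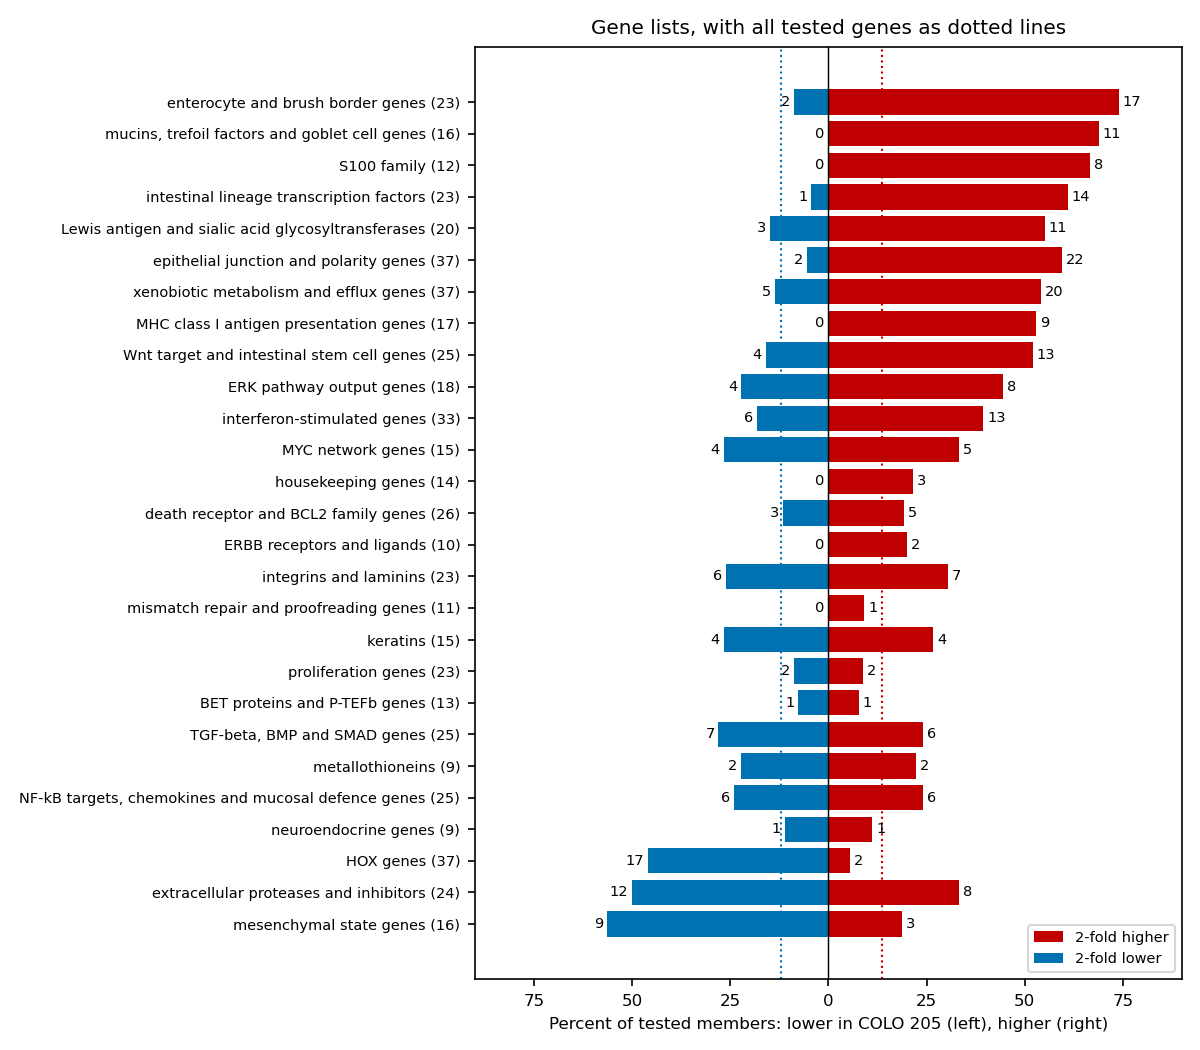
Percent of the tested members of gene lists with 9 or more tested (y axis, number tested in parentheses) that were at least 2-fold higher (red, right) or lower (blue, left) in COLO 205 than the mean of the 5 other lines, with the number of genes at each bar; dotted lines mark the shares of all tested genes, 13.6 and 12.2 percent. Enterocyte, goblet and S100 genes are the lists with the largest higher shares, and mesenchymal, protease and HOX genes those with the largest lower shares.

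The enzymes that build Lewis and sialylated surface glycans numbered 20 tested, of which 11 were higher, 3 lower and 8 above all other libraries (median 1.5). FUT3 and FUT6 met the filter through COLO 205 alone, and without them 9 of 18 were higher. B3GALT5, which starts the type 1 chain of Lewis antigens, read between 28.6 and 29.2 RPKM against at most 1.97 (4.86, SE 0.03), and FUT3, the Lewis fucosyltransferase, between 16.6 and 17.4 against at most 1.10 (4.59, SE 0.09). FUT6 stood at 4.83 RPKM against at most 0.0451 (3.39, SE 0.03). FUT3 and FUT6 are close paralogs and reads could be split between them. FUT1, ST3GAL2 and ST3GAL6 were the members that were lower, at differences from -1.59 to -1.18.

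Of 37 tested genes of xenobiotic metabolism and efflux, 20 were higher, 5 lower and 11 above all other libraries (median 1.17), or 16 of 33 higher without the 4 genes that met the filter through COLO 205 alone, AKR1C2 among them. The aldo-keto reductases AKR1C3, AKR1C2 and AKR1C1, which reduce steroids and carbonyls, had the largest differences, 7.57, 6.94 and 6.64, and as near-identical paralogs their separate values are uncertain. ALDH3A1, an aldehyde dehydrogenase, read 136, 141.5 and 136.5 RPKM against at most 13.3 (5.64, SE 0.05). NQO1, a quinone reductase, stood at 406 RPKM against at most 343 (2.01, SE 0.02). The drug efflux pump ABCB1 went the other way, at 0.0377 RPKM in COLO 205, 0.033 in HT-29 and 65.4 and 71.6 in HCT-15 and COLO 320 (-3.36, SE 0.05). ALDH1A3 was lower too (-3.49, SE 0.05).

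Epithelial junction and polarity genes leaned the same way: 22 of 37 were higher, 2 lower and 10 above all other libraries (median 1.37). COLO 320 weighs on this list, since with that line left out of the mean 11 were higher, as with the median of the lines. PKP1 met the filter through COLO 205 alone, and without it 21 of 36 were higher. EPCAM, an epithelial adhesion molecule, read 808, 797 and 819 RPKM against at most 474 (2.85, SE 0.03), with 1.37 RPKM in COLO 320. CDH1, E-cadherin, read 145, 145 and 141, with 126 in HCT-15 and 0.00736 in COLO 320 (3.11, SE 0.02). ESRP1, an epithelial splicing factor, stood at 103 RPKM against at most 67.9 (3.22, SE 0.03), and PKP1, a desmosomal plakophilin of stratified epithelia, at 26.0 against at most 1.02 (5.16, SE 0.05). P-cadherin, CDH3, and CLDN1, a tight junction claudin, were lower (-1.79 and -1.48). The tight junction scaffold TJP1, which did not reach 2-fold, read between 18.7 and 19.4 RPKM against a median of 34.5 (-0.92, SE 0.02).

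Of 16 tested mesenchymal state genes, 3 were higher and 9 lower (median -1.03), or 5 lower with the median of the lines. VIM, vimentin, read 0.268, 0.417 and 0 RPKM, near HT-29 (mean 0.35) and HCT-15 (0.0168), while SW 480 and COLO 320 stood at 412 and 520 (-4.03, SE 0.12). CCN1 and CCN2, matricellular proteins induced by YAP and TEAD, were below every other library (-3.86, SE 0.07 and -1.88, SE 0.06). The receptor kinase AXL was lower (-2.20, SE 0.05), high in SW 480 and HCT 116. TGFBI, an extracellular matrix protein, was the opposite: it read between 106 and 107 RPKM against at most 100.1, in SW 480 (4.87, SE 0.04). S100A4 and LGALS1 were also higher, at 3.63 and 2.46, and both were higher still in SW 480.

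Of 23 tested integrins and laminins, which join cells to the matrix, 7 were higher and 6 lower, 5 of those below every other library (median 0.15). ITGA6, the alpha chain of the hemidesmosome integrin, read 324, 318.5 and 317 RPKM against at most 165 (2.79, SE 0.02), and its beta chain ITGB4 read between 129.5 and 137.5 against at most 96.5 (2.63, SE 0.03). The laminin chains LAMA5, LAMC1 and LAMB2, which together can form basement membrane laminins, were below every other library. LAMA5 read 0.401, 0.355 and 0.31 RPKM against 4.66 to 38.8 (-4.26, SE 0.04), LAMC1 stood at 1.05 against at least 7.98 (-3.44, SE 0.02) and LAMB2 at 1.25 against at least 1.78 (-2.46, SE 0.04). ITGAV, an alpha chain that binds RGD ligands, was low too, at 5.64 to 6.32 RPKM against at least 14.7 (-1.69, SE 0.03). Low adhesion-linked genes named after their values were seen include ZYX, zyxin, at 9.49 to 9.85 RPKM against 54.8 to 107 (-2.91, SE 0.02), and TEAD2, a partner of YAP, at 0.105 to 0.149 against 7.07 to 17.7 (-4.46, SE 0.03).

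Extracellular proteases and their inhibitors had 8 of 24 tested members higher and 12 lower (median -1.0), or 6 lower with the median of the lines. TMPRSS4, a transmembrane serine protease of epithelia, stood at 65.2 RPKM against 18.4 in HT-29 and at most 0.292 in the other line means (5.75, SE 0.05), and the serpin SERPINB5 at 56.7 RPKM against at most 23.7 (3.83, SE 0.04). TIMP2, an inhibitor of metalloproteinases, read 2.77, 2.99 and 2.42 RPKM against 11.9 to 115 (-3.60, SE 0.04). PLAUR, the urokinase receptor, was lower (-2.26, SE 0.05) while its ligand PLAU was higher (1.71, SE 0.05).

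The keratins, which form the epithelial cytoskeleton, were mixed, 4 of 15 higher and 4 lower. The higher count was 2 without COLO 320 or with the median of the lines and 7 without SW 480 or with voom, and the lower count 2 without SW 480 and 1 with the median. KRT6B stood at 21.0 RPKM against at most 1.69 (4.98, SE 0.04), with reads that could be shared with KRT6A. KRT20, a marker of differentiated colonocytes, read 0.43, 0.247 and 0.179 RPKM, in the range of every other line but HT-29, at 141 (-1.63, SE 0.10). Its difference rests on HT-29, and without that line it was -0.16. The calcium-binding S100 family had 8 of 12 higher and 0 lower (median 2.25), or 5 higher without COLO 320, in which most members were near 0. S100A11 read 1446, 1470 and 1459 RPKM against at most 973 (4.07, SE 0.02), and S100P stood at 201 RPKM, below HT-29 at 333 (6.24, SE 0.08). Of 5 tested CEACAM genes 3 were higher, CEACAM1 the most (2.25, SE 0.06). CEACAM19 met the filter through COLO 205 alone, and without it 2 of 4 were higher. CEACAM19 (1.06) and CEACAM5 (1.05) lay near the threshold, and 1 gene was higher with a pseudocount of 1, a filter at 5 RPKM or median centring.

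Of 37 tested HOX genes, which set position along the gut, 2 were higher and 17 lower (median -0.75). HOXB8 and HOXB9 were the lowest: HOXB8 read 0.516, 0.543 and 0.42 RPKM and HOXB9 1.36, 1.30 and 1.33, against medians of 23.3 and 37.8, with only COLO 320 lower, at 0.0193 and 0.291 (-3.88, SE 0.04 and -3.61, SE 0.05). HOXB5 was below every other library (-2.49, SE 0.04). HOXD9, HOXD10, HOXD11 and HOXD13 were at 0 in all 3 COLO 205 libraries. HOXC5 was above every other library (2.10, SE 0.08), and HOXA9 and HOXA10, within 2-fold, stood at 27.6 RPKM and at 15.7 to 16.3 RPKM. Low levels were not shared by the whole family.

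Wnt target and stem cell genes had 13 of 25 members higher and 4 lower, 8 above all other libraries (median 1.0), and 7 were lower with the median of the lines. SMOC2 met the filter through COLO 205 alone, and without it 12 of 24 were higher. SMOC2, a secreted protein of crypt stem cells, read 42.6, 43.6 and 43.4 RPKM against at most 0.0587 (6.38, SE 0.03) and passed over line means. TCF7, a Wnt-responsive transcription factor, read 297, 295 and 301.5 against 5.85 to 22.1 (4.42, SE 0.03), and EPHB2, an ephrin receptor of crypt cells, 189, 188 and 192 against at most 7.48 (5.28, SE 0.04). LGR5, the R-spondin receptor that marks crypt stem cells, read 9.86, 10.3 and 9.75 RPKM, with 4.29 in HT-29 and 2.13 in COLO 320 (3.21, SE 0.04). ASCL2, a stem cell factor, was within the range of HCT-15 (2.27, SE 0.05). AXIN2, the feedback inhibitor used as a Wnt readout, did not stand out, at 38.4 RPKM against a median of 58.4 (-0.09, SE 0.02). Among inhibitors of the pathway, NOTUM (0.117 RPKM), APCDD1 (0.061) and DKK1 (0.227) were lower, at -3.60, -3.68 and -4.62, and DKK1 was below every other library. CTNNB1, beta-catenin, stood at 163 RPKM (0.32, SE 0.01), and APC read 3.98, 4.16 and 4.03 against 4.84 to 6.63 (-0.51, SE 0.03).

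In the TGF-beta and BMP pathway 6 of 25 members were higher and 7 lower, or 4 lower without COLO 320. SMAD4, the common mediator, read 0.429, 0.429 and 0.349 RPKM, between SW 480 (0.282) and HT-29 (1.37), and 10.1 to 19.3 in the other line means (-2.51, SE 0.03). The ligand TGFB1 read 0.483, 0.63 and 0.678 against 3.41 to 29.6 (-3.73, SE 0.06), and TGFB2 was also below every other library (-2.20, SE 0.03). The receptor TGFBR2 was higher, at 20.7 RPKM (1.38, SE 0.03), as was the co-receptor TGFBR3 (2.5, SE 0.04). BMP7, a BMP ligand, stood at 56.2 RPKM and at 69.7 in SW 480, with 3.68 or less elsewhere (4.68, SE 0.05). ID2 and ID3, targets of BMP signalling, were lower (-1.50 and -1.57).

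BRAF itself read 1.79, 1.71 and 1.86 RPKM, below all 15 others, which ran from 2.73 to 3.84, and the difference did not reach 2-fold (-0.71, SE 0.04). Of 18 output genes of the ERK pathway 8 were higher and 4 lower. SPRY2, a feedback inhibitor, read 37.9, 40.9 and 39.7 RPKM against at most 15.4 (3.22, SE 0.07), and the phosphatase DUSP4 at 19.8 to 20.2 against at most 16.9 (2.78, SE 0.05). DUSP6 was within 2-fold, at 33.0 RPKM and with 26.1 in HT-29 and 272 in SW 480 (0.83, SE 0.03). DUSP5, CCND1, EGR1 and EPHA2 were lower, DUSP5 the most (-2.79, SE 0.06). The members therefore did not move together. EGFR stood at 5.38 RPKM (-0.18, SE 0.03), with a sign that turns under 4 alternatives, and ERBB2 at 59.1 RPKM was above every other library (1.33, SE 0.02).

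Of 26 death receptor and BCL2 family genes 5 were higher and 3 lower, close to the 13.6% and 12.2% of all genes tested, and 8 were higher with voom. All 5 lay above every other library. TNFRSF10C met the filter through COLO 205 alone, and without it 4 of 25 were higher. The 5 were the death ligand TNFSF10 (2.75), the BH3-only genes BIK (2.26) and BCL2L11 (1.24), the decoy receptor TNFRSF10C (1.96) and CASP8 (1.19). The death receptor FAS (-1.87, SE 0.05), the BH3-only gene BBC3 (-1.59, SE 0.08) and BCL2 (-1.16, SE 0.05) were lower. BBC3 read 0.859, 0.898 and 0.923 RPKM, below all other libraries, while FAS and BCL2 overlapped with other lines.

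MYC read 64.4, 64.1 and 63.7 RPKM, below the 15 others, which ran from 74.4 to 1856 with the top in COLO 320 (-1.57, SE 0.02). Of 15 genes of its network 5 were higher and 4 lower (median 0.40), or 1 lower without COLO 320 and 2 with the median of the lines. MYCN read 15.1, 14.7 and 15.9 RPKM against at most 5.84, in COLO 320 (4.17, SE 0.03), and MYCL stood at 5.85 against at most 3.55 (1.58, SE 0.05). MXD1, a MYC antagonist, was above every other library too (2.39, SE 0.04). PVT1, the non-coding neighbour of MYC, was lower (-2.17, SE 0.03), with 588 RPKM in COLO 320, as were the antagonists MXI1 (-1.27) and MXD4 (-1.16). Of 23 proliferation genes 2 were higher, the replication genes MCM3 (1.90) and PCNA (1.14), and 2 were lower, CCNE1 (-1.29) and TYMS (-1.09). Of 11 genes on the mismatch repair and proofreading list the 1 that was higher was MGMT (1.97, SE 0.07), a direct-reversal enzyme for alkylated guanine that belongs to neither process, and 0 were lower. With voom, without HT-29 or without HCT-15 2 were higher. MSH6 stood at 36.2 RPKM (0.25, SE 0.02). PIK3CA differed by -0.11 (SE 0.04).

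Genes of antigen presentation and the interferon response were higher in part. Of 17 class I genes 9 were higher and 0 lower, 6 above every other library. B2M, the light chain of class I molecules, read 1019, 987 and 985 RPKM against at most 438.5 (2.12, SE 0.02), and PSMB8, an immunoproteasome subunit, 37.5, 36.5 and 36.9 against at most 16.3 (3.45, SE 0.05). Values of single HLA genes are uncertain because their alleles differ from the reference. Of 33 interferon-stimulated genes 13 were higher and 6 lower, or 11 of 31 higher without XAF1 and SAMD9L, which met the filter through COLO 205 alone. EPSTI1 read 71.0 to 72.5 RPKM against at most 2.66 (6.0, SE 0.06). XAF1 and SAMD9L stood at 8.93 and 7.56 RPKM, against at most 0.0775 and 0.128, and passed over line means. IFITM1, IFITM2, IFITM3 and ISG15, of the same response, were lower, at -2.97, -4.56, -1.75 and -1.27, and IFITM1 was at 0 in all 3 libraries. Of 25 tested NF-kB targets and mucosal defence genes 6 were higher, SLPI the most (4.11, SE 0.12), and 6 lower, IL32 the most (-3.13, SE 0.08). Without CFB and TNFAIP3, which met the filter through COLO 205 alone, 4 of 23 were higher; 3 were with a pseudocount of 1 and 2 with a filter at 5 RPKM, and 10 were lower with voom on recovered reads.

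The remaining lists are given together, and their counts stand beside 13.6% higher and 12.2% lower of all genes tested. Of 14 housekeeping genes 3 were higher, B2M, TFRC (1.60) and YWHAZ (1.24), and GAPDH, a glycolytic enzyme often used as a reference, differed by 0.01 (SE 0.02). Of 13 BET protein and P-TEFb genes, the machinery that JQ1 acts on, AFF1 was higher (1.02, SE 0.02) and HEXIM2 lower (-1.27, SE 0.07). The call of AFF1 was lost, leaving 0 higher, with a pseudocount of 1, with each other scaling, and without HCT 116, SW 480 or HCT-15. The lower count was 2 without HT-29, without COLO 320 or with the median of the lines. Of 9 metallothioneins, which bind metals and are near-identical in sequence, MT1G and MT1X were higher (3.92 and 1.17) and MT1E and MT1A lower (-4.56 and -3.44). Of 8 cancer-testis antigens 0 were higher and 5 lower, PRAME the most (-2.16, SE 0.04), each high in HCT 116 or COLO 320 and at most 2.37 RPKM in any other line mean. That count was 3 without COLO 320 or without HCT 116, and 0 with the median of the lines. Of 9 neuroendocrine genes DDC, which makes dopamine and serotonin, was higher (4.46, SE 0.04), at 21.5 to 22.8 RPKM with 10.9 in HT-29. UCHL1 was lower (-2.62, SE 0.05), a difference set by COLO 320 at 542 RPKM against 3.88 or less in every other line mean. Of 5 class II genes HLA-DQB1 and HLA-DRB1 were higher (3.73 and 3.20). HLA-DRB1 met the filter through COLO 205 alone, and without it 1 of 4 was higher. HLA-DRA, the partner of HLA-DRB1, stood at 0.0636 RPKM, and CIITA, the activator of class II genes, at 0.0397. Of 10 ERBB receptors and ligands ERBB3 and ERBB2 were higher, and of 7 cyclin-dependent kinase inhibitors CDKN2A was (1.04), with CDKN1A (-1.59, SE 0.05) and CDKN1C (-1.07) lower. These last counts rest on single libraries and lines. Without COLO 205 replicate 3, without HCT-15, with a pseudocount of 1, with the median of the lines or with another scaling, 0 of the 7 were higher. The lower count was 1 without COLO 205 replicate 1, without SW 480, without COLO 320 or with a pseudocount of 1, and 0 without HCT 116.

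A few genes best known from leukocytes, chosen after their values were seen, were among those that passed over line means. SPN, the sialoglycoprotein CD43, read 40.9, 39.0 and 41.7 RPKM against at most 0.253 (6.17, SE 0.03). IRF8, an interferon regulatory factor of myeloid and B cells, read 38.0, 39.3 and 39.9 against at most 0.521 (6.03, SE 0.06). The chemokine receptor CXCR3 read 40.6, 41.2 and 42.4 against at most 0.717 (6.16, SE 0.07). No other library overlapped with COLO 205 in these genes, which was fixed by the filter, since they met it through COLO 205 alone. CCR6, another chemokine receptor, read 15.7 to 16.9 RPKM (4.79), CD244, a receptor of natural killer cells, up to 12.9 (4.67), and CASP1, the inflammasome protease, 19.5 to 20.2 (5.32). Of the 12 leukocyte markers listed 5 were tested, of which 2 were higher and 0 lower at 2-fold (median -0.52). LYZ, lysozyme, which Paneth cells also make, stood at 1057 RPKM and at 1518 in HT-29, and CD68 stood at 158 against at most 6.81; neither passed over line means. The 12 leukocyte markers summed to 1200 to 1220 RPKM in COLO 205 and 3.82 to 1550 in the other libraries. Without LYZ and CD68 the sums were 0.461 to 0.658 and 0.355 to 6.93. The defining markers PTPRC, CD3E and MS4A1 were at 0 in all 3 COLO 205 libraries, although LCK was at 250.3 or more.

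Another pair chosen after its values were seen was APOBEC1, the cytidine deaminase that edits apolipoprotein B RNA in the small intestine, and A1CF, its RNA-binding cofactor. APOBEC1 read 25.7, 25.6 and 26.4 RPKM against at most 0.446 (5.56, SE 0.09), and A1CF read 6.91, 6.95 and 6.89 against at most 0.103 (3.82, SE 0.03). Both lay above every other library, which was fixed by the filter, since no other library reached the RPKM minimum for them. Both genes passed over line means (adjusted p = 0.0223 and 0.0486), and they were tested for that reason alone. APOB, the substrate of APOBEC1, was at 0 in all 3 libraries. PCK1, the first committed enzyme of gluconeogenesis, read 49.2 to 50.5 RPKM against at most 0.165 (6.54, SE 0.03), and FXYD2, a subunit that modulates the sodium pump, 19.99 to 21.3 against at most 0.289 (5.22, SE 0.08). For PCK1 and FXYD2 too, no other library reached the RPKM minimum, so their place above the others was fixed.

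Genes above all other libraries also lay side by side along chromosomes. In the RefSeq order of the tested genes, the longest unbroken run of genes with all 3 COLO 205 libraries above the 15 others, of any size, held 22 genes, from FOXP4 to PEX39 (median difference 2.52, range 1.39 to 4.47). It included CCND3, cyclin D3, which read 159, 155 and 163 RPKM against at most 57.9, and MED20 and MRPS10, subunits of Mediator and of the mitochondrial ribosome, which passed over line means. The run ended at TREML2 on the one side and at CNPY3, with a difference of -0.31, on the other. Counted from UNC5CL to PEX39 it held 29 genes, 28 of them above all others. Of these, UNC5CL, TSPO2, APOBEC2, ADCY10P1 and LOC401261 were below 1 RPKM in every other line mean. A gene that reaches 1 RPKM in all 3 COLO 205 libraries and in no other library has to lie above the others. Across all tested genes 16.6% were above all others in DMSO. In the JQ1 libraries all 22 genes were above all others again, as were 15.6% of all tested genes.

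The second run held 13 genes, from HBS1L to PERP (median 2.61, range 0.68 to 4.75). It contains MYB, a transcription factor of crypt progenitors, which read 155, 154 and 155 RPKM against at most 19.1, in HT-29 (4.75, SE 0.03). PERP, a tetraspan protein of desmosomes, read 414.5, 406 and 414 against at most 85.3, and IFNGR1, the interferon-gamma receptor, 116, 116 and 117 against at most 45.7. From TCF21 to PERP 16 of 17 genes were above all others, the exception being SGK1. Here TCF21, SLC35D3 and TNFAIP3 were below 1 RPKM in every other line mean. The third run held 8 genes from AKR1C1 to CALML3 (median 5.0), in which the AKR1C paralogs may share reads. AKR1C2, AKR1C4, TUBAL3, CALML5 and CALML3 were at 0.755 RPKM or less in every other line mean. They met the filter through COLO 205, so their place above the others was fixed by it. DNA copy number was not measured in these data, and its part in these runs was not tested.

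**Figure D4:**
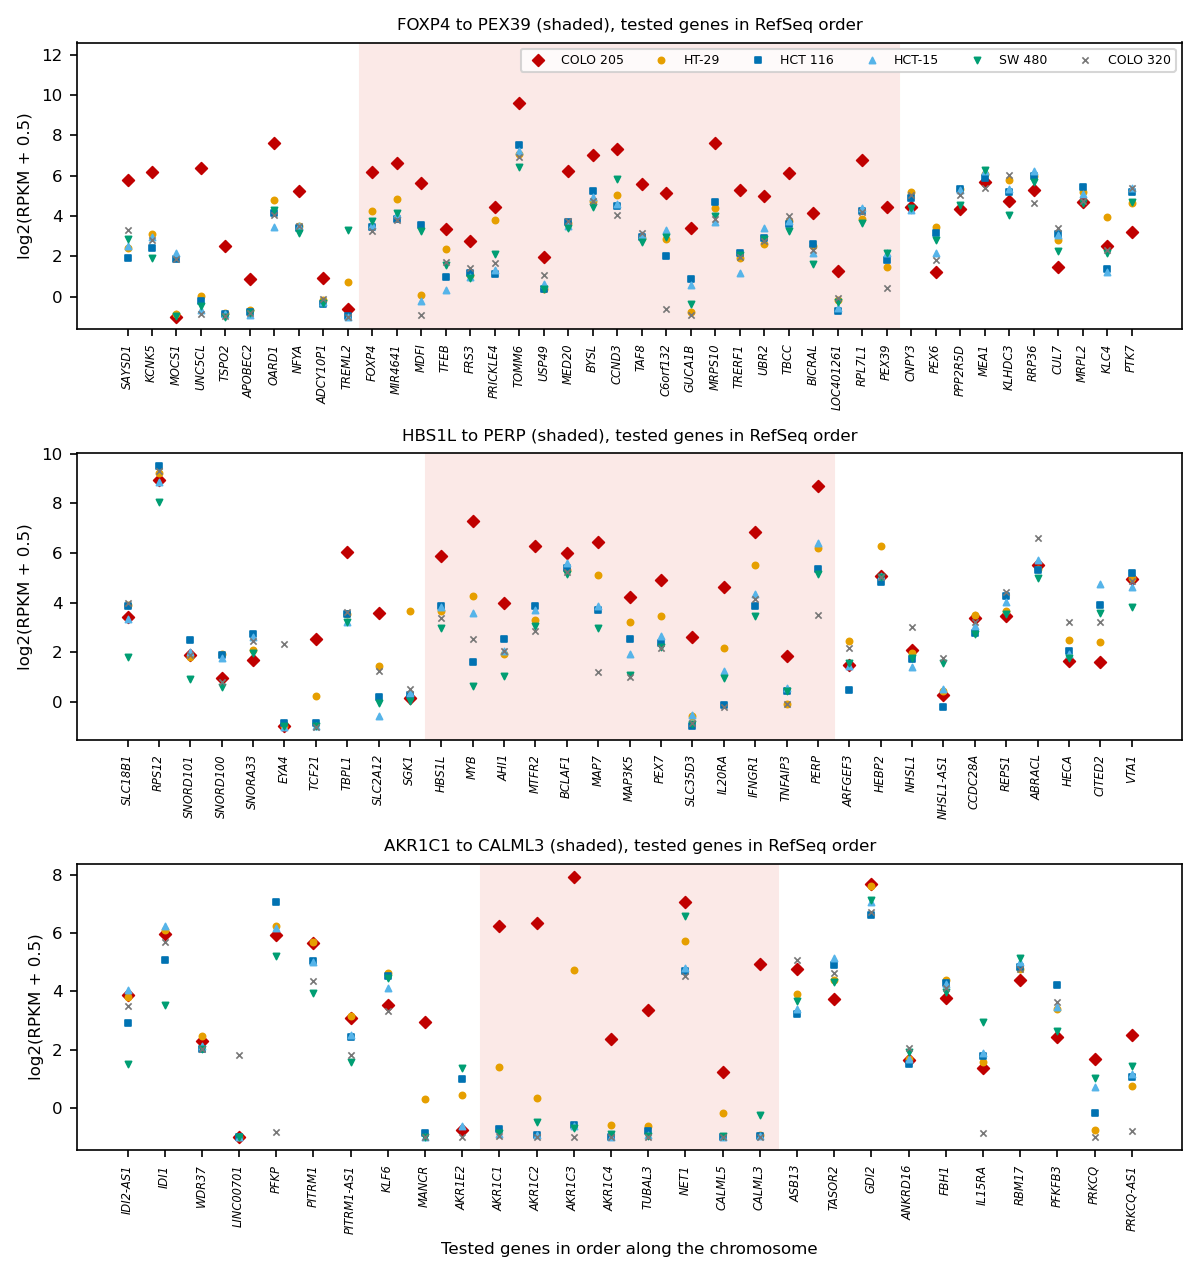
Group means on the log2(RPKM + 0.5) scale (y) of tested genes in their RefSeq order (x), 1 symbol for each line, for the 3 longest runs (shaded) and the 10 tested genes on each side. COLO 205 (red) lies above the other lines for all 22, 13 and 8 shaded genes; the next tested genes to the right, CNPY3, ARFGEF3 and ASB13, differ by -0.31, -0.14 and 0.90 and overlap with other libraries.

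Since HNF4A was highest in COLO 205, the promoter windows described above were searched on both strands for a few short motifs. The HNF4 motif CAAAGTCCA was in 10 of 1075 promoters of higher genes above the range (0.93%), in 0 of 643 of the lower genes below it, and in 34 of 11200 of all tested genes (0.304%). These 10 genes, chosen after their values were seen, include MUC13, APOBEC1, UNC5CL and CD68, described above. The others are PDZK1, a scaffold of brush border transporters (difference 3.89), CYP2B6, a drug-metabolising enzyme (4.25), ABLIM1 (1.13), PPIP5K1, ERICH4 (2.73) and the non-coding MANCR (3.65). PPIP5K1 was just inside the 2-fold threshold. The windows of MUC13, APOBEC1 and UNC5CL are printed with the match in capitals because these genes were among those farthest above the other lines. The match begins 51, 28 and 147 bases before the start. The sequences are from RefSeq GRCh38.p14, all on the minus strand, at chr3:124934702-124935001, chr12:7665859-7666158 and chr6:41039172-41039471.
MUC13: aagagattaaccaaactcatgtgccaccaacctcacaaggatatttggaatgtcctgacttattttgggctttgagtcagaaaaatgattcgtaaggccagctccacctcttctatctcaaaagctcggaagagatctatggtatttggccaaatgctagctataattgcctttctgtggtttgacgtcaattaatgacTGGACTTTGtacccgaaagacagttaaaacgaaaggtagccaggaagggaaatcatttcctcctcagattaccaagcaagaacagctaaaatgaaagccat
APOBEC1: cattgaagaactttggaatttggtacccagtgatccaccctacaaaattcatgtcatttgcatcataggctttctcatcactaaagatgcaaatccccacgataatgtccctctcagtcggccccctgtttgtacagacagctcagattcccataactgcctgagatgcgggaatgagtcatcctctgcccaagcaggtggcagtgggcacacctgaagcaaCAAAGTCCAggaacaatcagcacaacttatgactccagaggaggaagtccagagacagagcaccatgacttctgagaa
UNC5CL: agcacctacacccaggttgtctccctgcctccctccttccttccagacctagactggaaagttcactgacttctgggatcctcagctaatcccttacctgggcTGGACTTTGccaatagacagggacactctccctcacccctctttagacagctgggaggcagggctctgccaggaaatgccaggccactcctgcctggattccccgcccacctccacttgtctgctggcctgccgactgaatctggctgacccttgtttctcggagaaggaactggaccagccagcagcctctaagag
The TCF/LEF motif CTTTGAT showed no such spread, at 1.40%, 1.24% and 1.38%. The FOXA motif TGTTTAC was in 3.91%, 1.40% and 2.34%, the GATA motif AGATAA in 7.35%, 3.73% and 5.0%, the CDX motif TTTATNG in 8.47%, 5.75% and 6.04%, and the AP-1 motif TGANTCA in 7.35%, 3.42% and 4.61%. A match is a string of letters, and binding was not measured. The windows of the lower genes were richer in G and C (69.7% against 63.3%), and the part of base composition in these shares was not tested.

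The differences were looked for again in the 18 JQ1 libraries, a separate set of samples of the same lines. There 1955 genes (12.9%) were at least 2-fold higher in COLO 205 and 1776 (11.7%) lower. Of the 2055 genes higher in DMSO, 1548 (75.3%) were 2-fold higher under JQ1 too and 1984 (96.5%) were higher at any size, and 29 were called in the opposite direction. Of the 1839 lower genes, 1382 (75.1%) were 2-fold lower again, 1818 (98.9%) lower at any size and 6 opposite. LDHB and PFN2 were as low in those libraries, at -8.01 and -6.77, and the change from the DMSO difference missed the threshold in limma's interaction test (adjusted p = 0.987 and 0.169).

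Several of the largest differences were smaller with JQ1, by limma's interaction test over all genes. BAAT went from a difference of 6.99 to 1.34, with JQ1 libraries at 0.73, 0.814 and 1.06 RPKM (adjusted p = 3.81e-29), and GPA33 from 7.75 to 3.85, with 7.85, 7.60 and 7.82 (adjusted p = 1.15e-19). PCK1 went from 6.54 to 1.63, and FABP1, a fatty acid binding protein of enterocytes, from 3.61 to 0.14 (adjusted p = 1.64e-31 and 8.71e-21). PLA2G2A kept 8.78 of 11.14, with JQ1 libraries between 567 and 581 RPKM (adjusted p = 2.81e-06). CDX2, the absent lineage factor, was less far below the others with JQ1, at 9.94, 10.3 and 9.42 RPKM against at least 7.12 elsewhere (-1.62, adjusted p = 8.06e-25). VIL1 and EPCAM went the other way, to slightly larger differences of 5.31 and 3.18 (adjusted p = 2.45e-05 and 8.92e-09). Of the 17 listed enterocyte genes higher in DMSO, 16 were at least 2-fold higher again with JQ1, and the 2 lower ones were lower again. The sizes of the differences named here moved in both directions. BAAT, PCK1 and EPCAM are not on the enterocyte list.

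**Figure D5:**
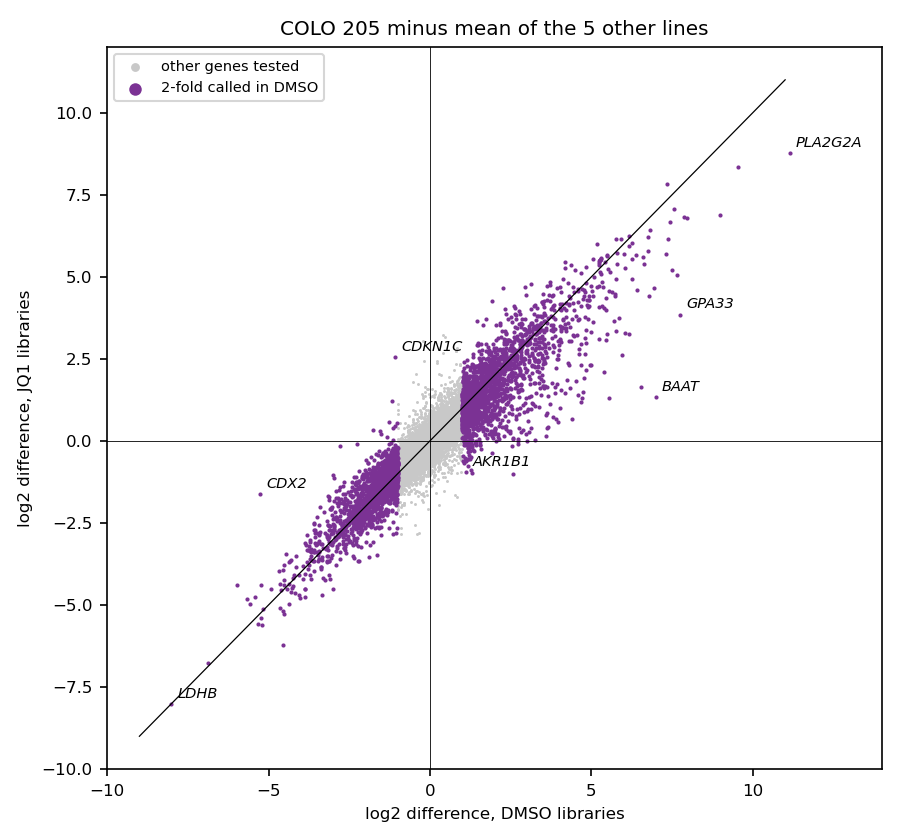
log2 difference between COLO 205 and the mean of the 5 other lines in the DMSO libraries (x) and in the JQ1 libraries (y), 1 point for each tested gene; purple points are at least 2-fold in DMSO and the line marks equality. Most points follow the line, LDHB at -8.01 on both axes, while BAAT, GPA33 and CDX2 lie nearer to 0 with JQ1 and CDKN1C changes sides.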

How the data were processed

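RNA was sequenced from 36 libraries of 6 colon cancer lines, 3 for each line and treatment. The authors deposited 1 table of RPKM values for 26468 Entrez genes. The submitters' processing notes name GSNAP, DESeq, limma and NCBIM37, with no role or version. NCBIM37 is a mouse build name, so no coordinates of the table were used. Whether counting used strand was not stated in the labels or the table, so overlapping and antisense genes cannot be told apart. RPKM steps gave whole reads (within 0.01 read) for 100% of the 23499 genes above 0, and the reads gave each library's depth. RefSeq (GRCh38.p14) gave symbols for 24519 genes, neighbour order and promoters, and 106 genes (Y-linked genes and XIST) were left out.

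The test was limma 3.58.1 (R 4.3.3) on log2(RPKM + 0.5), with 6 DMSO group means over 18 libraries, a mean-variance trend, a two-sided test and Benjamini-Hochberg adjustment over 15134 genes. Genes needed an RPKM of 1 in 3 libraries: by that value CRYGS (1.0012) was just inside and INKA1 (0.99931) just outside. A call needed an adjusted p under 0.05 and 2-fold. The script was tested on simulated data. Of the genes tested 98 repeat another gene's values. The text names the 15 highest and 15 lowest genes beyond all other libraries, up to 4 leading members of each list by size of difference, further members where their list is described, a fixed set of colon cancer genes, and others where it says so; a few of these genes are not reported here. The comparison, the lists and the genes were chosen with earlier results of these data known. Alternatives changed the pseudocount, filter, scaling, model, unit, lines and libraries.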

Additional observations from a re-analysis of the deposited data

Results flagged for a closer look

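Of 3894 genes called at 2-fold in DMSO, 35 were called in the opposite direction in the JQ1 libraries with a difference between the 2 contrasts that itself passed limma's interaction test. Of these, 3 were 2-fold under JQ1 too, and 4 belong to the lists described above. CDKN1C, a cyclin-dependent kinase inhibitor, was lower in COLO 205 in DMSO (-1.07, mean 0.863 RPKM) and higher under JQ1 (2.54, libraries at 16.5, 15.4 and 15.6 RPKM), and the DMSO difference minus the JQ1 difference was -3.61 (adjusted p = 2.24e-24). AKR1B1, an aldose reductase, went from 1.13 to -0.96, a change of 2.08 (adjusted p = 2.74e-17). MT1X, a metallothionein with close paralogs, went from 1.17 to -0.75, a change of 1.92 (adjusted p = 3.63e-16). FOSL1, an AP-1 subunit, went from 1.24 to -0.57, a change of 1.81 (adjusted p = 1.97e-20), with 32.1 RPKM in DMSO and 4.81 under JQ1.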

How the results depend on the processing

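The counts of higher and lower genes stayed within 1.5 times of their values under every alternative but those named here. Over line means 62 genes were higher and 15 lower, and the same 62 and 15 were outside the range of the other libraries. Without HT-29, 1305 genes lay below the others in place of 841. The range without 1 library each was 2041 to 2066 genes higher, 1830 to 1851 lower, 1447 to 1477 above and 844 to 884 below. Against single lines it was 5678 to 5711 for COLO 320, 4941 to 4957 for HCT 116, 4312 to 4328 for HCT-15, 3423 to 3450 for HT-29 and 4896 to 4957 for SW 480. Read counts recovered from the RPKM, fitted with voom, gave 2645 higher and 2645 lower. Dividing by total reads moved the median of all genes from -0.03 to -0.15. The direction turned for EGFR with a pseudocount of 0.1 (0.20), with voom (0.86), without SW 480 (0.24) and without HT-29 (0.068), for PIK3CA without SW 480 (0.049) and with the median of lines (0.0041), for CDKN2A without HCT-15 (-0.034), and for MSH6 without HCT-15 (-0.39) and with the median of lines (-0.082); the cause was not tested. Of the 142 named genes called at 2-fold, 123 did not pass over line means. The 43 genes of the 3 longest runs kept their place above the others under every alternative run on them. Most of these alternatives could not change it. The pseudocount, model and unit keep the order of the libraries, and leaving out libraries or lines only relaxes the rule. Further counts of gene lists moved as follows. The higher HOX count went from 2 to 5 with a pseudocount of 0.1, with voom or without HT-29, and to 4 without HCT 116. The higher ERBB count went from 2 to 7 with voom and 4 without HCT 116. The lower lineage factor count went from 1 to 2 or 3 under 8 alternatives. The lower xenobiotic count went from 5 to 3 with the median of lines. The lower neuroendocrine count went from 1 to 6 with a pseudocount of 0.1 or voom, to 2 without HT-29, and to 0 without COLO 320 or with the median. For metallothioneins 1 was higher with quantile scaling, without HT-29 or with the median, and 4 were lower with a pseudocount of 0.1. For proliferation genes 1 was higher with quantile scaling and 1 lower without HCT 116 or HCT-15. The lower junction count fell from 2 to 1 without SW 480, without HT-29 or with the median, and the lower enterocyte count from 2 to 1 without COLO 320 or with the median. With the replicate number as a block 2056 genes were higher and 1839 lower. Libraries of different lines with the same number did not deviate together (45 pairs, r from -0.064 to 0.085). Of 18 libraries, 8 correlated best with their own number. Whether same-numbered libraries were prepared together cannot be read from these values. Depth limits genes near 0: differences between values of a few hundredths of an RPKM rest on a few reads.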
